A study of Homo sapiens with 24 samples.

Results

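S100 proteins are a family of small proteins, most of them calcium-binding. This report describes the transcripts of 9 S100 genes in breast cancer cells cultured at low or high glucose. The genes were S100A4, S100A6, S100A8, S100A9, S100A10, S100A11, S100A14, S100A16 and S100P, out of 18889 genes in the deposited table. A further symbol on the list, S100A7, was not analysed here, which left 9 of 10. The genes were chosen by their normalized read counts in these same samples, comparing low with high glucose within each line and the lines with each other. Their levels and differences are therefore given as a description, with no p-value.

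The lines were MDA-MB-175, HCC1500 and ZR-75-30, all established from human ER+ breast tumors, and were kept for 48 hours at 5 mM (low, the control) or 25 mM (high, modeling hyperglycemia) glucose before their total RNA was sequenced. Each of the 6 groups had 4 replicates, giving 24 samples. Per the methods of the study, all cells were conditioned in low glucose before the experiment, and the glucose media contained no serum. Each line stands for the cells of 1 tumor, and the sources used here do not say whether replicates were separate cultures grown on different days, so the spread between them may be technical. Values are normalized read counts as deposited. The recovered whole reads summed to between 9140024 and 17998819 per sample, and 3 reads, the detection floor used here, were worth between 0.953 and 2.29 on the normalized scale.

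The sample labelled HCC1500 high glucose replicate 3 stood apart from the other high-glucose replicates of its line. Its log2 ratio to them had a Spearman correlation of -0.542 with exon length across 12348 genes, so short genes read high in it, and S100 genes are short (408 to 1172 bases for the main transcript of the 9 genes, against a median of 2905 over all genes). The 4 S100 genes with a mean of at least 10 in HCC1500 were all higher in it, by a median of 1.31 on the log2 scale, against 0.27 over all genes. Values for HCC1500 are therefore given without this replicate first. All 8 luminal markers looked up, among them ESR1, GATA3 and KRT8, were above the floor in every line. Of 6 basal markers looked up, 4 had values, and all 4 were above the floor in MDA-MB-175. In ZR-75-30, 4 were above it at low and 3 at high glucose, and in HCC1500 2 in each condition. At low glucose in MDA-MB-175, the basal markers summed to between 1485 and 1948 normalized reads per sample, and the luminal markers to between 68113 and 78548. TXNIP, a gene known to rise with glucose, was higher at high glucose in each line, by log2 differences of 0.99 (HCC1500), 0.76 (ZR-75-30) and 0.39 (MDA-MB-175).

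S100 proteins form dimers, and most bind calcium through paired EF-hand loops and then change shape to grip target proteins. Some work inside the cell, where they regulate the cytoskeleton, annexins and membrane traffic, and some are released and signal through receptors such as RAGE (AGER) and TLR4. Most S100 genes sit in a cluster on the long arm of chromosome 1. On GRCh37, S100A10 (chr1:151955391-151966335) and S100A11 (chr1:152004982-152020383) lie at one end, then S100A9 (chr1:153330330-153333499), S100A8 (chr1:153362508-153363549), S100A6 (chr1:153507075-153508720), S100A4 (chr1:153516089-153522612), S100A16 (chr1:153579362-153585621) and S100A14 (chr1:153586731-153589462). Of these, S100A9 is on the plus strand and the others on the minus strand, and S100P lies apart on chromosome 4 (chr4:6695605-6698897, plus strand). In breast cancer, S100A4 is known for its links to motility and metastasis, S100A8 and S100A9 for inflammation, and S100P for its presence in hormone receptor-positive cells.

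The 250 bases before the RefSeq start site are shown for 5 of the genes, picked by their values in the data below. S100A4 and S100P were higher at high glucose in ZR-75-30 as well as MDA-MB-175. S100A9 was abundant in MDA-MB-175 and at or under 1 read in each sample of the other lines. S100A10 and S100A11 were well above the floor in all samples, as was S100A6, which is not shown. Sequences are from RefSeq, read 5′ to 3′ on the strand of the gene, and were placed on GRCh37 by exact match. None overlapped an annotated exon. S100A4 (chr1:153518283-153518532, minus strand), S100P (chr4:6695355-6695604, plus strand), S100A9 (chr1:153330080-153330329, plus strand), S100A10 (chr1:151966336-151966585, minus strand) and S100A11 (chr1:152009481-152009730, minus strand) follow, with capitals marking TATAAA or GGGCGG on either strand.
S100A4: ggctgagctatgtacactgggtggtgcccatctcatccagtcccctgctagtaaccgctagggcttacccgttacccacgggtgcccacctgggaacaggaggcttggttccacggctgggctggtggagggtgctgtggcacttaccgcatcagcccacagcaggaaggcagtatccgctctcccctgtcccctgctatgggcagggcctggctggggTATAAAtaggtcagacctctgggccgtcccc
S100P: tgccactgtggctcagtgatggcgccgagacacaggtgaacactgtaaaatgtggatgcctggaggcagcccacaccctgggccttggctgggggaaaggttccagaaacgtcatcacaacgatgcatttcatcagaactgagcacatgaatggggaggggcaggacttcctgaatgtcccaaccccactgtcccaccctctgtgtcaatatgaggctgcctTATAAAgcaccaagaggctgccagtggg
S100A9: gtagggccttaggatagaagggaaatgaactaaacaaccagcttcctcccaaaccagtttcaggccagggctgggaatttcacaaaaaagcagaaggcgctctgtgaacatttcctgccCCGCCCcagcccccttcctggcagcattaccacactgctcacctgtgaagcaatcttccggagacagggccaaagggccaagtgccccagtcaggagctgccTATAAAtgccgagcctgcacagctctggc
S100A10: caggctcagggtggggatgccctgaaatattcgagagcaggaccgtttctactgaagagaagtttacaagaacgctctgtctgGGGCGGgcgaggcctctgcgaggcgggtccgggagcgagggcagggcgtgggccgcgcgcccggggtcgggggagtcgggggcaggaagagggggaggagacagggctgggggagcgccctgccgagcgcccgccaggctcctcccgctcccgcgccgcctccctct
S100A11: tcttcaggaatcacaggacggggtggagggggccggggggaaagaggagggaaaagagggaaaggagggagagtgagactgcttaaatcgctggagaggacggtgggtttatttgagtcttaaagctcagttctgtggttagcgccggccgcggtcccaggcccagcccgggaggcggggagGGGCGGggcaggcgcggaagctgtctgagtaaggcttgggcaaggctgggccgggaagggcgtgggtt

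TATAAA, the core of a TATA box, began 31 bases before the start of S100A4, 29 before that of S100A9 and 28 before that of S100P, on the strand of the gene. Of the 12 RefSeq windows of the 9 genes, 5 held TATAAA (S100A4, S100A9, S100P and 2 of the 3 windows of S100A8), against 10.7% of 35116 windows of all genes. By gene this was 4 of 9. The S100A8 matches began at -29 and -126 from their starts, and whether they are 1 site was not checked. GGGCGG, a GC box, stood in 5 windows, those of S100A6, S100A9, S100A10, S100A11 and the second S100A16 start, against 42.6% of all windows. TGANTCA, which contains the letters of AP-1 sites, and CACGTG, an E-box, were in none of the 12, against 6.57% and 6.34% of all windows. The windows of S100A6 and S100A10 held 24 CG pairs each, that of S100A11 held 15, and those of S100A4, S100A9 and S100P held 7, 4 and 4, against a median of 11. These are matches of letters within 250 bases and were not tested as sites.

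S100A4 is a partner of non-muscle myosin and had the largest difference between glucose conditions in each line among the members tested there. In MDA-MB-175 its low-glucose values were 1056, 1122, 1207 and 1229, and its high-glucose values were 3373, 3460, 3541 and 3938. The conditions did not overlap, and the means of 1153 ± 79.7 and 3578 ± 250 (SD, n = 4 each) gave a ratio of 3.10, or 1.63 ± 0.055 (SE) on the log2(value + 1) scale. In ZR-75-30 the low-glucose values were 321, 330, 335 and 367 and the high-glucose values were 519, 609, 629 and 659. Again no high-glucose sample reached down to the low-glucose range, and the means of 339 ± 20 and 604 ± 60.3 (SD, n = 4 each) had a ratio of 1.78, or 0.83 ± 0.065 (SE) on the log2 scale.

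In HCC1500 the S100A4 transcript was scarce. The 4 low-glucose samples had 2.22, 3.07, 3.80 and 3.88 normalized reads, from 34 reads in all, and high-glucose replicates 1, 2 and 4 lay between 12 and 12.9, from 73 reads. The low-glucose samples of this line were also sequenced deeper (13190982 to 17998819 reads, against 9423472 to 12140912 at high glucose), a difference whose part was not tested. The groups did not overlap, and the log2 difference was 1.68 ± 0.27 (SE) without high-glucose replicate 3. That replicate read 28.2, and with it the difference was 1.96 ± 0.30. Of the 9 genes, S100A4 was the one tested in all 3 lines whose conditions did not overlap and were higher at high glucose in each. This was the case for 3.57% of the 14572 genes tested in all 3 lines. The log2 difference in ZR-75-30 was smaller than that in MDA-MB-175 by -0.80 ± 0.14 (SE from a fit of all 3 lines, ZR-75-30 minus MDA-MB-175), given as a description.

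S100A4 is also known as fibroblast-specific protein 1. The 6 fibroblast markers looked up summed to between 115 and 139 normalized reads per sample at low and between 140 and 179 at high glucose in MDA-MB-175, to between 101 and 117 and between 78.6 and 97.3 in ZR-75-30, and to between 265 and 295 and between 222 and 257 in HCC1500 without high-glucose replicate 3. Their group means were above the floor for 4, 1 and 3 of the 6 markers in these lines, and DCN was at 0 in every ZR-75-30 and HCC1500 sample used. LUM (lumican) averaged 21.9 ± 2.21 at low and 58.7 ± 9.96 at high glucose in MDA-MB-175, with 29.5 ± 3.54 and 46.0 ± 1.89 in HCC1500. In HCC1500 LUM was thus higher at high glucose while the sum of the 6 markers was lower, so LUM does not stand for the list. The part of the fibroblast markers in the S100A4 values was not tested. In RNA from whole cultures, more cells with a transcript and more transcript per cell cannot be told apart.

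S100P, which binds ezrin and signals through RAGE when released, was higher at high glucose in both lines that expressed it. Its MDA-MB-175 values were 1508, 1705, 1710 and 1793 at low and 2442, 2591, 2750 and 2964 at high glucose. The ZR-75-30 values were 1935, 2001, 2073 and 2167 at low and 3140, 3484, 3581 and 4034 at high glucose. The conditions did not overlap in either line. The ratio of means was 1.60 in MDA-MB-175 (1679 ± 121 against 2687 ± 223, SD, n = 4 each) and 1.74 in ZR-75-30 (2044 ± 99.6 against 3560 ± 369), with log2 differences of 0.68 ± 0.06 and 0.80 ± 0.06 (SE).

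The difference between these log2 values was 0.12 ± 0.19 (SE, ZR-75-30 minus MDA-MB-175). This SE is from the fit of all 3 lines, which includes the HCC1500 samples with few S100P reads. With the length trend removed, the S100P log2 difference was 0.669 in ZR-75-30 and 0.685 in MDA-MB-175. In HCC1500, S100P gave 2 reads over the 4 low-glucose samples and 7 over the 3 high-glucose samples used, at or under the floor in each, so no fold is given. S100A4 and S100P were the members whose conditions did not overlap and were higher at high glucose both in ZR-75-30 and in MDA-MB-175, against 7.01% of the 15440 genes tested in both.

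**Figure D1:**
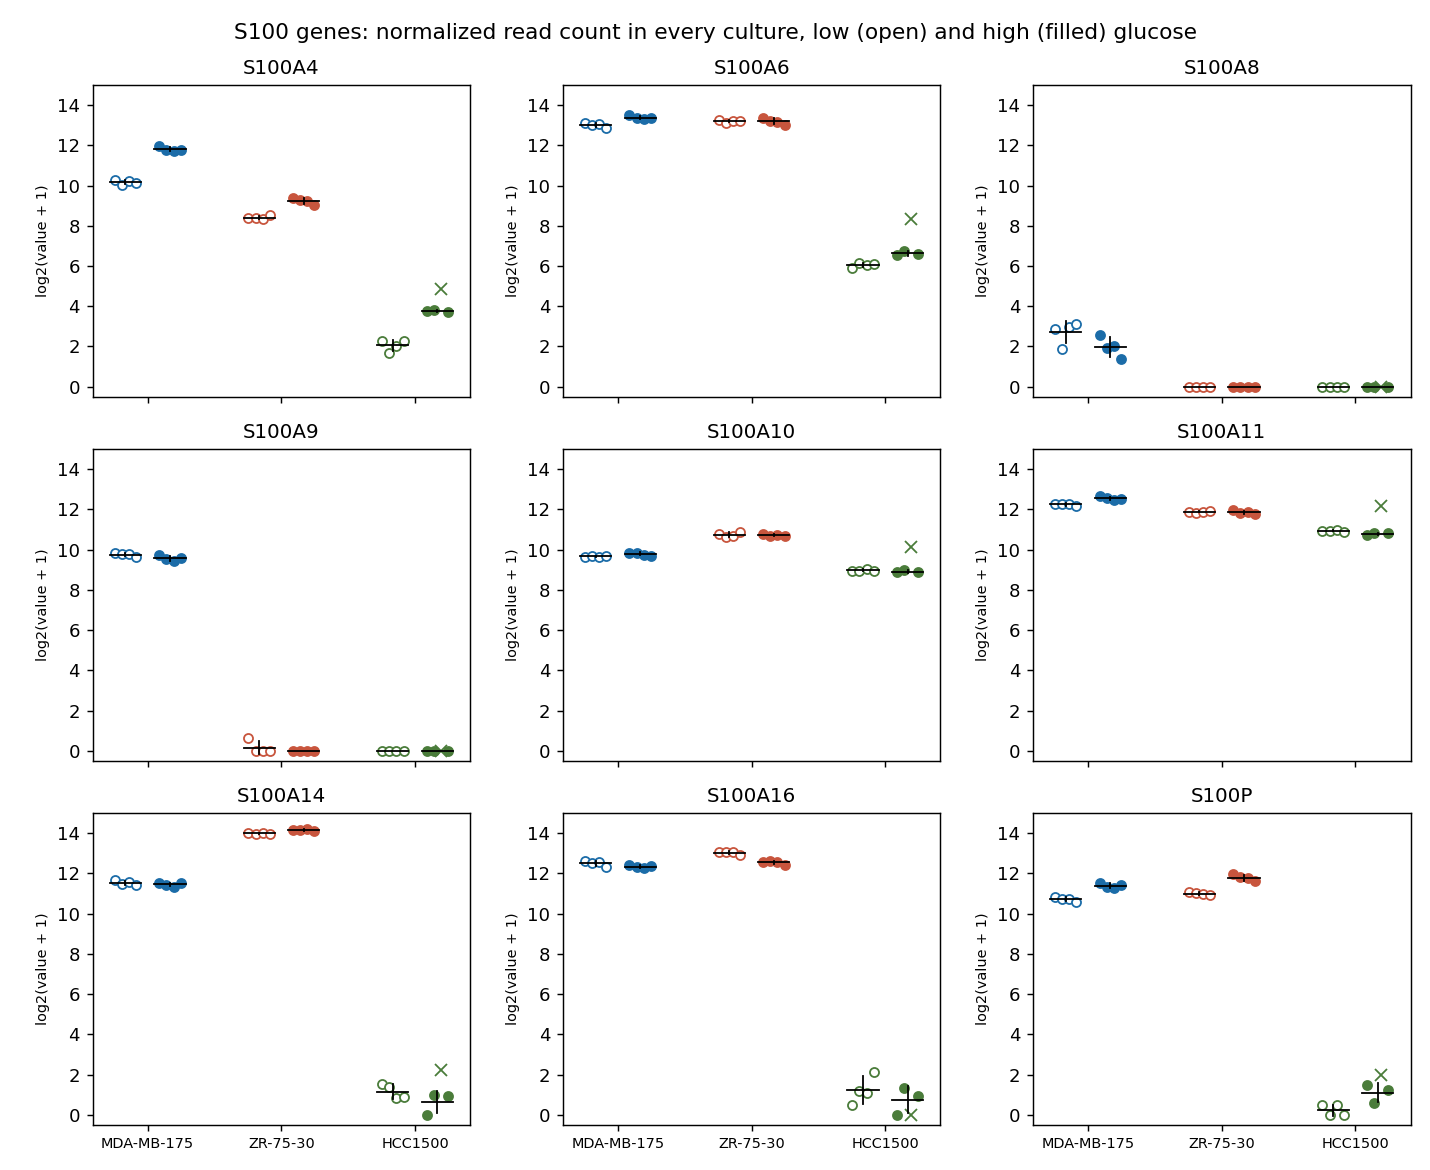
Each panel plots 1 S100 gene, with log2(normalized read count + 1) on the y axis and the cell lines on the x axis. Each point is a sample (open, low glucose; filled, high glucose), horizontal and vertical bars are the mean and SD, and the cross is HCC1500 high glucose replicate 3, left out of the bars. S100A4 was higher at high glucose in all 3 lines, S100P in the first and second line, and S100A8 and S100A9 were near 0 outside MDA-MB-175.

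S100A6 (calcyclin) and S100A11 (calgizzarin) are partners of annexins, and S100A6 also binds CACYBP. In MDA-MB-175, S100A6 read 7556, 8210, 8449 and 8801 at low and 10101, 10393, 10413 and 11548 at high glucose, a log2 difference of 0.36 ± 0.05 (SE) with no overlap. S100A11 read 4594, 4853, 4933 and 5003 at low and 5697, 5938, 5979 and 6442 at high glucose, a log2 difference of 0.31 ± 0.04 (SE), again with no overlap. The ratios of means were 1.29 for S100A6 and 1.24 for S100A11.

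In ZR-75-30 both genes overlapped between the conditions. S100A6 averaged 9314 ± 325 at low and 9424 ± 898 at high glucose (SD, n = 4 each), and S100A11 averaged 3771 ± 90.9 and 3707 ± 221. Their log2 differences were 0.01 ± 0.05 and -0.03 ± 0.04 (SE), or -0.049 and -0.126 with the length trend removed. The S100A11 difference in ZR-75-30 was below that in MDA-MB-175 by -0.34 ± 0.06 (SE), and that of S100A6 by -0.35 ± 0.09.

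In HCC1500 without high-glucose replicate 3, S100A6 read 59.7, 65.6, 68.0 and 69.9 at low and 91.4, 96.9 and 106 at high glucose, a log2 difference of 0.57 ± 0.09 (SE) with no overlap. Replicate 3 read 325, which brought the difference to 1.0 ± 0.37. S100A11 read 1907, 1932, 1963 and 1990 at low and 1678, 1786 and 1794 at high glucose, lower with no overlap, by -0.15 ± 0.03 (SE). Its direction rested on the scaling and on replicate 3. The median gene in this line moved by -0.12, and relative to it S100A11 stood at -0.03, S100A6 at 0.70 and S100A4 at 1.81. With replicate 3, which read 4649, the S100A11 difference was 0.20 ± 0.30.

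S100A10 (p11) forms a tetramer with annexin A2 and helps to place channels and plasminogen at the cell surface. In MDA-MB-175 it read 790, 801, 817 and 817 at low and 824, 862, 911 and 922 at high glucose. The groups lay close but did not overlap, and the log2 difference was 0.12 ± 0.04 (SE). It overlapped in ZR-75-30, where the means were 1717 ± 149 and 1685 ± 58.7 (SD, n = 4 each), and in HCC1500, where they were 500 ± 15.8 (n = 4) and 478 ± 21.8 (n = 3). The HCC1500 log2 difference of S100A10 was -0.07 ± 0.04 (SE), or 0.06 relative to the median gene, so its sign rested on the scaling. HCC1500 high-glucose replicate 3 read 1108, far above the others.

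S100A14 and S100A16, which lie side by side on chromosome 1, are known from epithelial cells. S100A16 was lower at high glucose in ZR-75-30, with 7840, 8513, 8585 and 8618 at low and 5535, 6095, 6120 and 6265 at high glucose. The conditions did not overlap, and the log2 difference was -0.48 ± 0.04 (SE). In MDA-MB-175 the S100A16 values overlapped, with means of 5802 ± 482 and 5176 ± 213 (SD, n = 4 each) and a log2 difference of -0.16 ± 0.05.

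S100A14 went the other way in ZR-75-30, with 15849, 15925, 16566 and 16694 at low and 17421, 18162, 18373 and 18751 at high glucose, higher by 0.16 ± 0.04 (SE) with no overlap. In MDA-MB-175 it overlapped between the conditions (2961 ± 206 and 2807 ± 168, SD, n = 4 each). In HCC1500 the 4 low-glucose samples held 14 S100A14 reads and 16 S100A16 reads in all, and the 3 high-glucose samples used held 4 and 5. No sample used was above 3.44 normalized reads for either gene.

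S100A8 and S100A9, which pair as calprotectin, an antimicrobial and inflammatory protein of neutrophils, were found in MDA-MB-175. S100A9 read 795, 871, 880 and 907 at low and 689, 730, 761 and 855 at high glucose. The conditions overlapped, and the log2 difference was -0.19 ± 0.06 (SE). S100A8 was far lower, with 2.68, 6.42, 6.83 and 7.63 at low and 1.58, 2.84, 3.12 and 4.99 at high glucose, again overlapping (47 and 28 reads in all). Per kb of the main transcript, the low-glucose means were 1506 ± 84.3 for S100A9 and 14.4 ± 5.39 for S100A8 (SD, n = 4 each).

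Outside MDA-MB-175, S100A8 had 0 reads in every sample, and S100A9 had 1 read in 1 ZR-75-30 sample at low glucose and 0 in the rest. A count of 0 allows up to 3 reads in a sample, so S100A9 at low glucose was at least 668-fold higher in MDA-MB-175 than in HCC1500. At high glucose it was at least 369-fold higher than in ZR-75-30. Myeloid markers, looked up because calprotectin is a product of neutrophils and monocytes, were low in MDA-MB-175. The 3 with values (LYZ, CSF1R and CSF3R, of 9 looked up) summed to between 12.5 and 22.1 normalized reads per sample at low and between 20.5 and 33.3 at high glucose, against 689 to 907 for S100A9 alone, and LYZ and CSF3R were above the floor. CSF3R went from 8.06 ± 3.16 to 18.4 ± 4.28. Their part in the S100A9 values was not tested.

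Of the 9 members tested in MDA-MB-175, 4 were called higher and 2 lower at an adjusted p under 0.05 from limma, a threshold that 25.7% of all genes tested in that line passed (11.9% higher, 13.7% lower). In ZR-75-30, 3 of 7 were higher and 1 lower, against 46.0% of all genes (23.4% higher, 22.7% lower). With the length trend removed, 3 were higher and 2 lower there, against 7485 of 15834 genes called (49.5% of calls higher). In HCC1500 without replicate 3, 2 of 6 were higher and 1 lower, against 58.5% (20.9% higher, 37.7% lower). With replicate 3 in the HCC1500 fit, 1 was higher and 0 lower, against 20.5%. With median-of-ratios scaling, 2 were higher and 0 lower in HCC1500, against 9233 of 16300 genes called (51.0% of calls higher). Conditions did not overlap for 5 of 9 members in MDA-MB-175, 4 of 7 in ZR-75-30 and 3 of 6 in HCC1500, against 26.6%, 42.0% and 58.1% of all genes (32.4% in HCC1500 with replicate 3). Since these contrasts were used to choose the genes, nothing is read from these counts. The median log2 difference over the members tested was 0.12, 0.01 and -0.11 in the 3 lines, beside -0.02, 0.01 and -0.12 over all genes tested. The 9 genes together took 0.427% ± 0.017 of the summed values at low and 0.520% ± 0.024 at high glucose in MDA-MB-175 (SD, n = 4 each), 0.576% ± 0.012 and 0.578% ± 0.022 in ZR-75-30, and 0.0444% ± 0.00096 (n = 4) and 0.0420% ± 0.0014 (n = 3) in HCC1500.

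**Figure D2:**
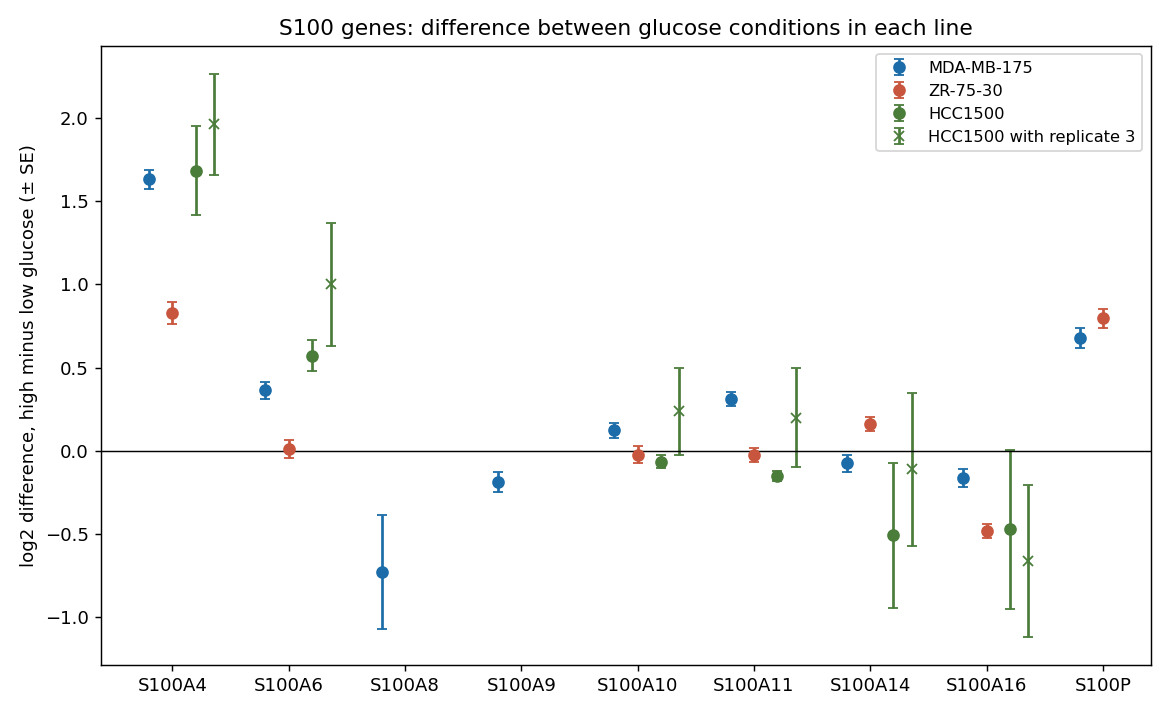
The y axis is the log2 difference in normalized read count, high minus low glucose, and the x axis the S100 genes; points are limma estimates per line and bars are SE. Crosses give HCC1500 with high-glucose replicate 3 kept. S100A4 lay at 0.83 to 1.68 in the 3 lines and S100P at 0.68 and 0.80, and the crosses have wider bars than the HCC1500 points for S100A6, S100A10 and S100A11.

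Levels differed between lines, by the most between HCC1500 and the other lines for S100A4, S100A6, S100A14 and S100A16. Between MDA-MB-175 and ZR-75-30 at low glucose the ratios were 1.13 for S100A6, 1.22 for S100P, 1.29 for S100A11 and 1.45 for S100A16. At low glucose, S100A4 was 3.41 times higher in MDA-MB-175 than in ZR-75-30 and 356 times higher than in HCC1500, where it rested on 34 reads. S100A6 was 125 times lower in HCC1500 than in MDA-MB-175, S100A14 2315 times lower and S100A16 3716 times lower, these last on 14 and 16 reads. S100A14 was 5.49 times higher in ZR-75-30 than in MDA-MB-175. S100A11 and S100A10 varied least, by ratios of up to 2.49 and 3.44 between lines. In every one of these comparisons the low-glucose ranges of the lines did not overlap. At low glucose, 72.1% of all genes differed between MDA-MB-175 and ZR-75-30, 79.5% between MDA-MB-175 and HCC1500 and 79.0% between ZR-75-30 and HCC1500 at an adjusted p under 0.05 (limma).

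Per kilobase of the main transcript at low glucose, which allows genes to be compared, the order in MDA-MB-175 was S100A6 (19018 ± 1210 normalized reads per kb, SD, n = 4), S100A11 (8607 ± 317), S100A16 (4951 ± 411), S100P (3565 ± 256), S100A14 (2810 ± 196), S100A4 (2249 ± 155), S100A9 (1506 ± 84.3), S100A10 (1202 ± 20.1) and S100A8 (14.4 ± 5.39). Neighbors in this order did not overlap in range. At high glucose S100A4, at 6975 ± 487, ranked 3, above S100P and S100A16. With the union of all annotated exons as the length, S100P stood above S100A16 and S100A9 (1506 per kb) above S100A4 (1219 per kb) at low glucose, and S100A4 ranked 4 at high glucose.

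In ZR-75-30 at low glucose the order per kb was S100A6 (21461 ± 748), S100A14 (15425 ± 411), S100A16 (7158 ± 315), S100A11 (6698 ± 161), S100P (4340 ± 211), S100A10 (2558 ± 222) and S100A4 (660 ± 39.0). S100A16 and S100A11 overlapped in range, and by the union of exons S100A14 ranked above S100A6 and S100A11 above S100A16. In HCC1500, S100A11 led at 3460 ± 64.3 per kb, followed by S100A10 at 745 ± 23.6, S100A6 at 152 ± 10.2 and S100A4 at 6.32 ± 1.5 (SD, n = 4 each). The other members were at or near the floor in this line.

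**Figure D3:**
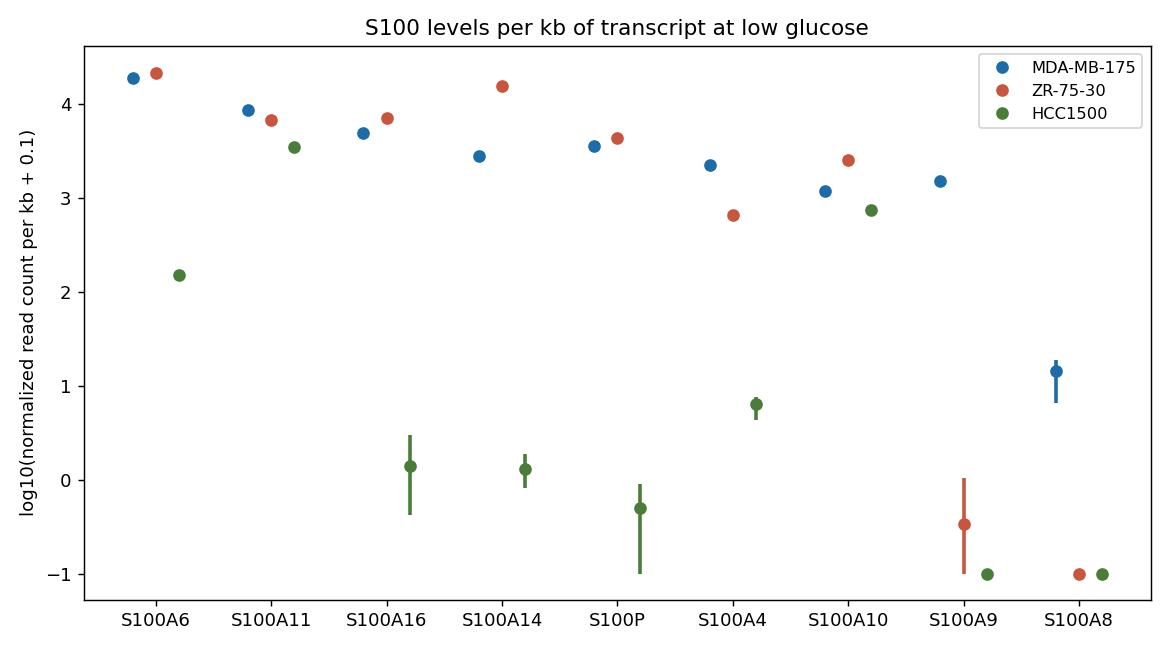
The y axis is log10(normalized read count per kb of the main transcript + 0.1) at low glucose and the x axis the S100 genes; points are means of 4 replicates and vertical lines span the lowest to the highest replicate. MDA-MB-175 and ZR-75-30 lay close together except for S100A14, S100A4, S100A9 and S100A8, while in HCC1500 only S100A11, S100A10 and S100A6 were above 100 per kb.

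The other S100 genes were taken as the rest of the family, 11 symbols of which 5 had values, and their tests are given. This list and the lists below were also drawn up with earlier results of these data known. Their p-values are therefore a description and not independent support. S100A1, which regulates calcium handling, rose in MDA-MB-175 from 626 ± 50.1 to 815 ± 52.8 (log2 0.38, adjusted p = 0.000167, limma) and in ZR-75-30 from 1662 ± 30 to 2410 ± 139 (log2 0.53, adjusted p = 5.0e-09). In HCC1500 it read 9.60 ± 1.76 at low and 6.51 ± 1.61 at high glucose (adjusted p = 0.0991, and 0.000786 in 1 fit of all lines), with no overlap. The F test between lines gave S100A1 an adjusted p of 1.2e-05 (limma, against 48.6% of genes that passed). Its glucose difference in ZR-75-30 minus that in MDA-MB-175 was 0.15 ± 0.15 (SE, log2). The F test result thus rested on HCC1500, with 104 reads at low and 39 at high glucose without replicate 3. S100A2 rose in MDA-MB-175 from 9.85 ± 2.57 to 28.9 ± 4.73 (log2 1.47, adjusted p = 5.3e-05, limma) and read 6.84 ± 4.06 and 5.99 ± 1.91 in ZR-75-30. The F test between lines gave an adjusted p of 0.0041 for S100A2. That test took in HCC1500, where S100A2 had 1 read at low and 1 at high glucose without replicate 3, too few to measure a difference.

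S100A13, an exporter of growth factors, fell by 0.23 on the log2 scale in MDA-MB-175 (adjusted p = 0.0231, limma) and rose by 0.14 in ZR-75-30 (adjusted p = 0.0153), with overlapping conditions in both. These calls did not hold when single replicates were left out: the adjusted p was 0.0609 to 0.0796 without MDA-MB-175 low-glucose replicate 1 or high-glucose replicate 2 or 3, and 0.0580 without ZR-75-30 low-glucose replicate 2 or high-glucose replicate 1. In 1 fit of all lines the ZR-75-30 value was 0.0769. S100A13 and S100A1 overlap by 235 exonic bases on opposite strands, and the strand setting of the counting is not given in the sources used here. S100A13 also overlaps another annotated gene by 536 bases on the same strand, and S100A1 overlaps 1 by 320 bases on the opposite strand. The reads of these genes therefore cannot be fully told apart. S100A5 rose in MDA-MB-175 from 3.71 ± 1.86 to 8.80 ± 4.04 (adjusted p = 0.0377, limma), and lost the call (adjusted p of 0.0606 to 0.133) without low-glucose replicate 3 or 4 or high-glucose replicate 1, 3 or 4. S100A3 gave at most 3 reads in a sample.

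The receptors that bind S100 proteins outside the cell were measured next, from a list of 11 genes. In MDA-MB-175, 2 of 11 rose and 2 fell, against 25.7% of all genes called in that line. TLR4, the receptor for S100A8 and S100A9, rose from 78.5 ± 8.33 to 141 ± 9.45 (log2 0.84, adjusted p = 3.95e-06, limma), and EMB (embigin) fell from 810 ± 58.5 to 673 ± 18.0 (log2 -0.26, adjusted p = 0.00122, and 0.436 in 1 fit of all lines). TLR4 was at 0 in every ZR-75-30 sample. AGER, which encodes RAGE, was scarce: 5.68 ± 1.03 and 4.53 ± 2.59 in MDA-MB-175, 1.90 ± 2.31 and 2.43 ± 1.0 in ZR-75-30 (adjusted p = 0.446 and 0.440), and 14.7 ± 3.10 and 8.61 ± 1.85 in HCC1500, where it fell (adjusted p = 0.0145, n = 3 at high glucose; 0.101 with DESeq2, 0.195 in 1 fit of all lines, 0.0625 with the length trend removed and 0.0546 or 0.0598 without low-glucose replicate 3 or high-glucose replicate 2).

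In ZR-75-30, 3 of 9 receptors rose and 2 fell, against 46.0% of all genes. LY96, a co-receptor of TLR4, rose from 0.704 ± 0.537 to 6.14 ± 3.33 (log2 2.02, adjusted p = 0.000361, limma) on 5 and 42 reads, and CD36, a scavenger receptor, fell from 20.5 ± 1.23 to 10.5 ± 1.52 (log2 -0.91, adjusted p = 0.00123). In HCC1500, 3 of 8 rose and 3 fell, against 58.5%. CD14 rose from 1.79 ± 1.21 to 11.1 ± 3.64 (log2 2.20, adjusted p = 6.03e-05) and MCAM, an adhesion receptor that S100A8 and S100A9 bind, from 21.8 ± 2.89 to 99.1 ± 4.69 (log2 2.14, adjusted p = 1.12e-10). With replicate 3, the HCC1500 counts were 2 and 2, against 20.5% of all genes.

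Annexins are the calcium- and membrane-binding partners of S100A6, S100A10 and S100A11. In MDA-MB-175, 3 of 10 rose, against 25.7% of all genes called, among them ANXA9 (288 ± 23.4 to 376 ± 25.9, adjusted p = 0.000424, limma) and ANXA3 (160 ± 3.85 to 199 ± 11.3, adjusted p = 0.00158), and 0 fell. In ZR-75-30, 5 of 9 rose and 2 fell, against 46.0%. ANXA3 rose there from 105 ± 6.45 to 230 ± 10.5 (log2 1.13, adjusted p = 3.15e-10), and ANXA1, an anti-inflammatory annexin, fell from 365 ± 14.7 to 221 ± 9.41 (log2 -0.72, adjusted p = 3.56e-09).

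In HCC1500, 8 of 9 annexins fell and 0 rose, in a line where 37.7% of all genes fell. ANXA6 fell from 1872 ± 97.4 to 954 ± 31.6 (log2 -0.97, adjusted p = 2.92e-13, limma), and ANXA11 from 353 ± 27.3 to 211 ± 16.1 (log2 -0.74, adjusted p = 1.09e-08, and 0.0623 with replicate 3). The list median was -0.30, beside -0.12 for all genes. The count depended on the scaling and on the library: 5 of 9 fell with median-of-ratios scaling, and 2 of 9 with replicate 3 kept. Over all genes, 9233 of 16300 were called with median-of-ratios scaling (51.0% of calls higher) and 3350 of 16361 with replicate 3 (36.4% higher). ANXA2, the partner of S100A10, read 2272 ± 74.6 and 2361 ± 104 in MDA-MB-175 (adjusted p = 0.376, limma), fell in ZR-75-30 by 0.13 on the log2 scale (adjusted p = 0.0084) and fell in HCC1500 by 0.30 (adjusted p = 1.4e-06, and 0.755 with replicate 3).

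The list of other binding partners and genes of plasminogen activation held 20 genes. In MDA-MB-175, 5 of 20 rose and 2 fell, against 25.7% of all genes called. PLAU, the urokinase that turns plasminogen into plasmin, rose from 3.25 ± 1.29 to 9.26 ± 3.05 (log2 1.28, adjusted p = 0.00806, limma) on 26 and 83 reads, and its receptor PLAUR from 13.8 ± 1.5 to 27.1 ± 2.0 (log2 0.93, adjusted p = 0.000507). In ZR-75-30, 6 of 18 rose and 6 fell, against 46.0%. DLC1, which binds S100A10, rose from 0.142 ± 0.285 to 1.67 ± 0.997 in the same line (adjusted p = 0.0241) on 1 and 12 reads, a call lost (0.0503 to 0.112) without low-glucose replicate 1, 2 or 4 or high-glucose replicate 1.

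In HCC1500, 11 of 19 of this list fell and 2 rose, against 58.5% of all genes called. With replicate 3 kept, 0 fell and 1 rose, against 20.5% of all genes. With median-of-ratios scaling, 6 of 20 fell and 3 rose, against 9233 of 16300 genes called (51.0% of calls higher). DLC1 rose from 94.7 ± 1.53 to 258 ± 11.8 (log2 1.44, adjusted p = 1.20e-12, limma), and PLAUR fell from 30.4 ± 3.46 to 19.2 ± 3.25 (log2 -0.64, adjusted p = 0.00279; 0.337 with replicate 3). S100PBP, which binds S100P, fell by 0.27 in ZR-75-30 and by 0.31 in HCC1500 on the log2 scale (adjusted p = 0.00388 and 0.00106, the latter 0.0982 with replicate 3 and 0.0858 with DESeq2), with -0.18 in MDA-MB-175 (adjusted p = 0.161). CACYBP, which binds S100A6, fell by 0.45 in ZR-75-30 (adjusted p = 4.83e-08) and by 0.21 in HCC1500 (adjusted p = 0.000157, but 0.0665 with median-of-ratios scaling and 0.999 with replicate 3).

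**Figure D4:**
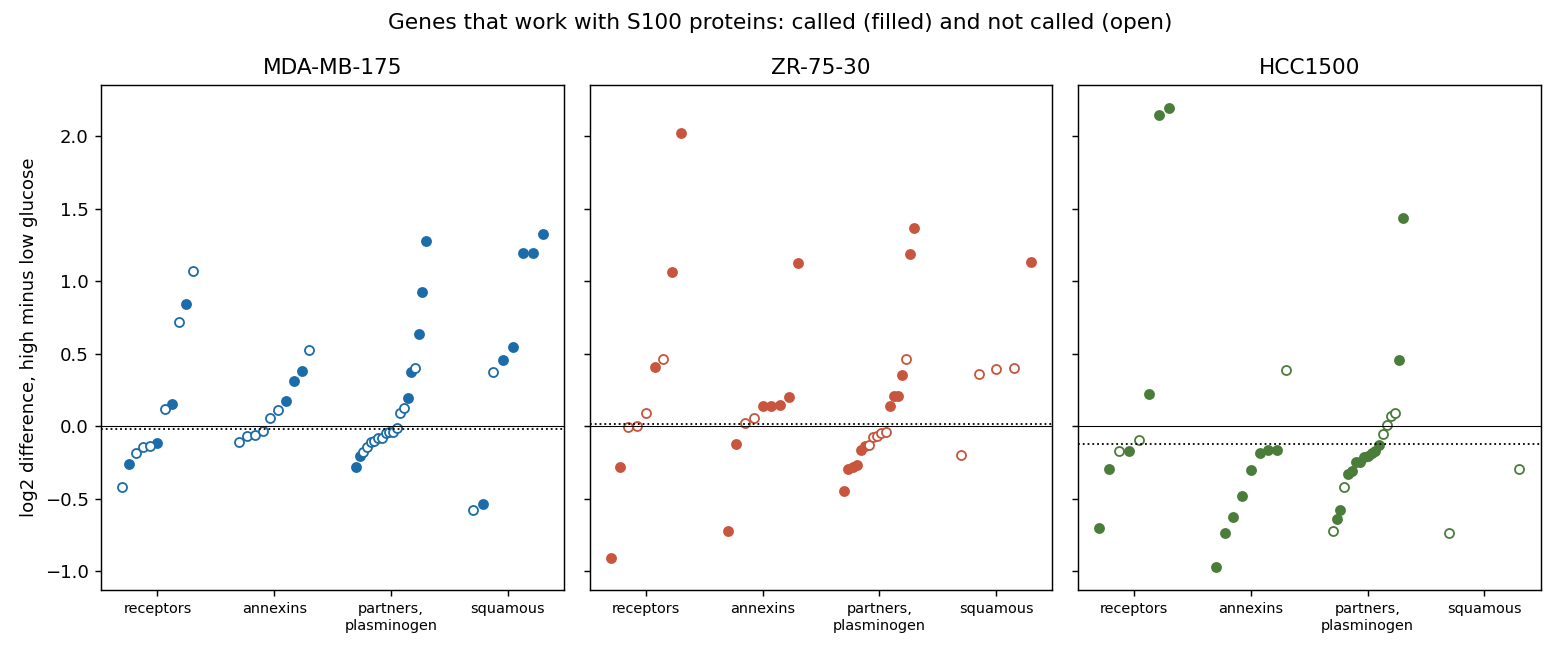
Each panel is a cell line, the y axis is the log2 difference (high minus low glucose) and each point is a tested gene of the list named on the x axis. Filled points passed an adjusted p of 0.05, the dotted line is the median of all genes tested, and HCC1500 is shown without high-glucose replicate 3. In HCC1500 the 8 called annexins lay below 0 and in MDA-MB-175 the 3 called annexins above it.

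Of the squamous differentiation genes, some, such as IVL and the SPRR genes, lie in the chromosome 1 region of the S100 cluster, and others, such as keratins and CSTA, lie elsewhere. In MDA-MB-175, 5 of 8 rose and 1 fell, against 25.7% of all genes called. SPRR3, a small proline-rich protein of the cornified envelope, rose from 156 ± 16.6 to 391 ± 27.2 (log2 1.32, adjusted p = 3.97e-09, limma), and SPRR1B from 1.30 ± 0.635 to 4.36 ± 2.03 (adjusted p = 0.0181) on 10 and 37 reads. The SPRR1B call was lost without low-glucose replicate 3 (0.0549) or high-glucose replicate 4 (0.0778). The gene that fell, named after its values were seen, was CSTA, a protease inhibitor of the cornified envelope (means of 664 and 457, log2 -0.54 ± 0.07 (SE), adjusted p = 1.32e-05, limma). In ZR-75-30, 1 of 5 rose, against 46.0%, and in HCC1500 neither gene tested passed, against 58.5%. Among the S100 fused-type genes, HRNR (hornerin) rose in MDA-MB-175 from 1.07 ± 0.740 to 3.08 ± 0.413 (adjusted p = 0.0416, limma) on 9 and 27 reads. The HRNR call was lost (0.0623 to 0.119) without low-glucose replicate 2 or 3 or any single high-glucose replicate. TCHH (trichohyalin) rose in HCC1500 from 12.8 ± 1.86 to 22.8 ± 6.42 (adjusted p = 0.00482).

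Genes within 250 kb of an S100 gene on chromosome 1, the S100 genes left out but HRNR and TCHH of the fused type counted, moved in both directions. In MDA-MB-175, 3 of 17 rose and 3 fell, against 25.7% of all genes called. In ZR-75-30, 5 of 14 rose and 3 fell, against 46.0%, and in HCC1500 4 of 13 rose and 4 fell, against 58.5%. With median-of-ratios scaling, 8 rose and 4 fell in HCC1500, against 9233 of 16300 genes called. With replicate 3 kept, 3 rose and 1 fell, against 20.5%. SLC27A3, an acyl-CoA synthetase, rose in ZR-75-30 from 36.4 ± 6.89 to 56.9 ± 3.85 (adjusted p = 0.00105, limma) and fell in HCC1500 from 319 ± 21 to 183 ± 1.77 (adjusted p = 6.95e-10; 0.0682 with replicate 3). OAZ3 fell in HCC1500 from 27.4 ± 1.83 to 14.9 ± 1.08 (adjusted p = 0.000218, limma, and 0.0884 with replicate 3). The transcript BX470102.3, which overlaps S100A6 on the opposite strand by 37 bases, rose in MDA-MB-175 from 1.95 ± 0.746 to 4.94 ± 1.07 on 15 and 42 reads (adjusted p = 0.0214, limma, and 0.0565 to 0.0642 without low-glucose replicate 4 or high-glucose replicate 1 or 2). S100A6 had 63877 and 91733 reads there, the strand setting of the counting is not given, and the part of S100A6 reads was not tested.

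For each member, the gene outside the family with the most similar pattern was sought among 13270 genes, by Pearson's r of log2(value + 1) over 23 samples after centring each line on its mean. The points share their libraries and the glucose conditions, which stay in the centred values, so r is a description. S100A4 was closest to PLIN2, a lipid droplet coat protein (r = 0.979), S100P to UBAP1, an endosomal sorting subunit (0.935), S100A6 to ATP1B3, a sodium pump subunit (0.923), and S100A11 to GLRX, a glutaredoxin (0.899). S100A10 was closest to LEPROT (0.701). For the others the search was limited by low counts, and nothing is read from it. S100A8, matched to ASIC2 (0.863), was at 0 in every ZR-75-30 and HCC1500 sample, and S100A9, matched to ALG1 (0.765), had 1 read in all of these. S100A16, matched to OPN3 (0.814), and S100A14, matched to FSTL1 (0.800), varied in HCC1500 by a few reads, as did S100P.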

How the data were processed

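The authors deposited 1 table of normalized read counts (a signal per gene) for all 24 samples, with no column left without a sample. Dividing each sample by the worth of 1 read gave whole reads for 100% of values (tolerance 0.01). For its tumors the study's methods name TopHat, hg19, DESeq2 and CPM with edgeR's TMM factors, while the submitters' processing notes for these samples name hg38 and edgeR. The deposited values summed to 5559394 to 7594840 per sample, which is not a CPM scale, and the scaling factor was not identified here. Coordinates are GRCh37 from GENCODE, which matched 96.3% of gene IDs.

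The 9 S100 genes and all gene lists were chosen with earlier results of these data known. Groups came from sample titles. Genes with at least 0.5 in at least 4 fitted samples were tested on log2(value + 1) with limma 3.58.1 (R 4.3.3, intensity trend, no covariate), each line alone, at a Benjamini-Hochberg adjusted p under 0.05. A scale of log2(value + 1) understates differences of low genes. HCC1500 high glucose replicate 3 was left out and was kept in an alternative. A fit of 6 group means on 23 samples gave differences between lines. The fits were tested on simulated data. Named genes were the S100 genes, TXNIP, ANXA2, AGER, S100PBP and CACYBP, and in each other list and line up to 2 called genes with the largest log2 difference whose conditions did not overlap. Some genes that this rule names are not reported here. LYZ, CSF1R, CSF3R, ESR1, GATA3, KRT8, DCN and LUM were named as cell type markers. Alternatives changed the pseudocount, filter, scaling, replicate block, samples and tool (edgeR 4.0.16 and DESeq2 1.42.0 on recovered reads). Precision from reads covers counting error only.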

Additional observations from a re-analysis of the deposited data

Results flagged for a closer look

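Samples that lay far from the rest of their group were found for 8 of 60 groups of 4 S100 values, where chance gives about 1 in 20. Groups share libraries, so the 8 are not separate draws to set against that rate. Of these, 5 were HCC1500 high glucose replicate 3: S100A4 at 28.2, S100A6 at 325, S100A10 at 1108, S100A11 at 4649 and S100A13 at 525 normalized reads, each above the other 3 replicates. The others were S100A10 in HCC1500 low glucose replicate 3 (523), S100A16 in ZR-75-30 low glucose replicate 4 (7840) and S100A1 in ZR-75-30 high glucose replicate 4 (2203).

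Opposite directions with no overlap in different lines were found for 1 member. S100A11 was higher at high glucose in every MDA-MB-175 sample (log2 0.31) and lower in every HCC1500 sample used (log2 -0.15), a difference that was not tested because the gene was chosen with these values known. Relative to the median gene, S100A11 in HCC1500 stood at -0.03, and with replicate 3 kept its difference was 0.20 ± 0.30 (SE). For genes outside the chosen set, the F test in limma gave an adjusted p of 1.2e-05 for S100A1, 0.0041 for S100A2 and 0.0053 for S100A13. S100A2 had 1 read in each condition of HCC1500 without replicate 3. S100A1 had 104 reads at low and 39 at high glucose there, and its ZR-75-30 minus MDA-MB-175 difference was 0.15 ± 0.15 (SE, log2). The S100A1 difference in HCC1500 was below that in MDA-MB-175 by -0.89 and below that in ZR-75-30 by -1.04 (log2).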

How the results depend on the processing

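The count of called genes was 4368, 7290 and 9504 in the lines MDA-MB-175, ZR-75-30 and, without replicate 3, HCC1500, and 3529 to 5038, 6746 to 7135 and 8907 to 9110 when single replicates were left out. With HCC1500 high glucose replicate 3 kept, the HCC1500 count was 3350, or 4575 with the length trend removed as well (chosen after seeing the data), called list genes went from 35 to 11 and 18, and the count of genes with a difference between lines went from 8809 to 5316. The median log2 difference of the S100 genes in HCC1500 was -0.11, and 0.26 rescaled to CPM (4 genes tested), 0.0143 with median-of-ratios scaling, 0.0111 with DESeq2, 0.22 with replicate 3 and 0.14 with it and the length trend removed. It was 0.22 against 0.12 in MDA-MB-175 under the stricter filter (fewer genes tested) and -0.0488 against 0.0126 in ZR-75-30 with the length trend removed. Leaving out single replicates, it ran from 0.10 to 0.16 in MDA-MB-175, -0.04 to 0.07 in ZR-75-30 and -0.13 to -0.07 in HCC1500. Called list genes ran from 24 to 30, 27 to 34 and 33 to 36, genes differing between lines at low glucose from 12755 to 13126, 14069 to 14467 and 14023 to 14374, and genes with unlike glucose differences from 8323 to 8857. Signs reversed in HCC1500 for S100A11 with replicate 3 (0.20, and 0.10 with the length trend removed), CACYBP (0.0004 and 0.0616), ANXA9 (0.0509 and 0.0186, and 0.0114 with the trend removed alone) and ANXA2 (0.0528 with both). In HCC1500 35.7% of calls were higher as deposited and 51.0% with median-of-ratios scaling, whose median gene stood at -0.01 against -0.12. The cause of these shifts was not tested. Replicate numbers did not pair the samples (same-number correlations from -0.05 to 0.16), and with a replicate block the counts were 4525, 7542 and 8912, so no count moved by over 1.5 times.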
